A study of Rattus norvegicus with 120 samples.

Results

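Glutathione transferases were followed in kidney and heart of ZSF1 rats through 10 genes taken by their symbol, namely Gstz1, Gstk1, Mgst1, Mgst2, Mgst3, Gstm1, Gstm2, Gstp1, Gstt1 and Gsto1, out of 30560 genes in the count tables. They were chosen by gene family with their CPM levels and fold changes in these libraries already known, so the adjusted p-values below set each difference against the spread between libraries and are not independent support. RNA of frozen kidney and heart was sequenced in 120 libraries, 60 per organ and 10 in each of 12 groups, from rats aged 30 weeks that received compound or vehicle in chow. Study A held ZSF1 obese rats given BT2, ZSF1 obese rats given vehicle and ZSF1 lean rats given vehicle. Study B held ZSF1 obese rats given BT2 with empagliflozin, ZSF1 obese rats given empagliflozin and ZSF1 obese rats given vehicle. ZSF1 obese rats carry mutated leptin receptor alleles and become obese and diabetic, and they were the animals of every group other than the lean one, so no lean rat received a compound. BT2 inhibits the kinase BDK, which switches off the enzyme complex that degrades branched-chain keto acids. Empagliflozin inhibits SGLT2, the glucose carrier of the proximal tubule. Renal samples are labelled kidney; the description of the series names both the whole organ and its cortex, and the distinction was not used here.

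Glutathione transferases join the thiol of glutathione to reactive compounds, which are then carried out of the cell and turned into mercapturates, a pathway in which the proximal tubule of the kidney has a large share. Several classes do other work as well. The zeta enzyme Gstz1 is the maleylacetoacetate isomerase of tyrosine breakdown and also metabolises dichloroacetate, and the kappa enzyme Gstk1 resides in mitochondria and peroxisomes. The microsomal enzymes Mgst1, Mgst2 and Mgst3 are membrane proteins of a separate family, some of which reduce lipid hydroperoxides or make leukotriene C4. Gstm1 and Gstm2 (mu class), Gstp1 (pi class) and Gstt1 (theta class) are cytosolic, and the omega enzyme Gsto1 reduces dehydroascorbate. Genes of the mu class are related copies in a cluster, so the authors' counting could split reads between them. Values of Gstm1 and Gstm2 are uncertain to that extent, which was not tested.

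The 250 bases before the start site are shown for the 4 genes with the largest called differences between kidneys given the combination and vehicle, since Gstz1, Gstp1 and Gstm2 rose under the combination while Gstm1, in the same cluster as Gstm2, fell. They are RefSeq sequences of build GRCr8, written 5′ to 3′ along each gene, and 8 of the 10 genes had an entry in the RefSeq table. Capitals mark matches, on either strand, to TGACNNNGC (the core of the antioxidant response element), GCGTG (the core of the xenobiotic response element) and AGGTCA (the hexamer of nuclear receptor sites).
Gstz1, chr6:112525356-112525605, plus strand: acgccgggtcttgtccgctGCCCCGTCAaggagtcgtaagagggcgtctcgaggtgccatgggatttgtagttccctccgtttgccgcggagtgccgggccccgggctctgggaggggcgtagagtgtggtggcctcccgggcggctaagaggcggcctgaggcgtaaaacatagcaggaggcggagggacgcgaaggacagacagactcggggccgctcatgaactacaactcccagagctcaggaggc
Gstp1, chr1:210769706-210769955, minus strand: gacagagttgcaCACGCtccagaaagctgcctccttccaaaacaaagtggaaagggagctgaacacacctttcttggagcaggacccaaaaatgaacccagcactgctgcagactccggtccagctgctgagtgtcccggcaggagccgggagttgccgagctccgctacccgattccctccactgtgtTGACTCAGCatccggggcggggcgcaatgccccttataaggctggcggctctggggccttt
Gstm1, chr2:198343384-198343633, minus strand: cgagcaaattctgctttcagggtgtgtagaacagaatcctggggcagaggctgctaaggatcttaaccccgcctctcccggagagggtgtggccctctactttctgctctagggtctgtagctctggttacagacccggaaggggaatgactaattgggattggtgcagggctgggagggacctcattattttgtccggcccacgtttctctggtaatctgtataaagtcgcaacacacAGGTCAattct
Gstm2, chr2:198316918-198317167, minus strand: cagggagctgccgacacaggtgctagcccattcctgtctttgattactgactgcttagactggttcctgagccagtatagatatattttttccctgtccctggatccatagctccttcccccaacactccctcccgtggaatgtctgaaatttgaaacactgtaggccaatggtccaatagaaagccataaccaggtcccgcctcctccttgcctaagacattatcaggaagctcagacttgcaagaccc
The antioxidant core lay 231 bases before the start of Gstz1, on the opposite strand, and 61 bases before the start of Gstp1, and in no other of the 8 windows. It is present in 10.1% of all 33469 windows of this length, the xenobiotic core in 25.9% and the hexamer in 14.1%. Matches to the xenobiotic core lay in the windows of Gstp1 and Mgst3, and the hexamer lay in the window of Gstm1. A match is a description of the letters in this window and says nothing of binding.

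Kidney libraries held up to 54856467 counts and heart libraries 6735291 to 23575874 counts. Kidney BT2 replicate 2 had only 22773 counts and kidney vehicle replicate 8 of study B had 776172. Both entered the tests but not the means, SDs and ranges, which leaves 9 libraries in each of these groups. Levels are CPM, counts brought to a common library total, scaled by TMM factors within an organ and not per length, so levels are compared between libraries and not between genes. Transcripts of another tissue, or in heart of the atrium, stood out in some libraries. The shallow kidney BT2 replicate 2 held the skeletal myosin Myh4 at 64901 CPM, and kidney lean replicate 8 held it at 8289 CPM. Kidney combination replicates 1, 4 and 5 held Alb at 94.2, 261 and 804 CPM. Replicate 7 of that group held the cardiac gene Actc1 at 258 CPM. Heart libraries differed in atrial transcripts, with Myl7 up to 3644 CPM in vehicle replicate 7 of study B. Calls of the 10 genes lost or gained without such libraries (the doubted libraries) are given beside the results. Apart from depth, doubted libraries were picked by Actc1 and Alb in kidney and by Myl7 and Myh4 in heart. Other markers were not screened. Genes were called at an adjusted p under 0.05 in edgeR's quasi-likelihood test with the plate (replicates 1 to 5 on one, 6 to 10 on the other) as covariate.

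Gstz1 was lower in obese than in lean rats in both organs and was higher with BT2 plus empagliflozin than with vehicle in both. In kidney its mean level was highest in lean vehicle rats, at 151 ± 19.3 CPM (SD, n = 10), and then in obese rats given BT2 with empagliflozin, at 144 ± 22.6 CPM (n = 10), and obese rats given BT2, at 128 ± 16.7 CPM (n = 9). It was 96.4 ± 14.9 CPM in obese vehicle rats of study A (n = 10), 82.8 ± 15.8 CPM in those of study B (n = 9) and 76.4 ± 12.8 CPM with empagliflozin (n = 10). Neighbours in that order had overlapping libraries throughout, and the step between BT2 and vehicle of study A was the one at which the intervals of mean ± SD did not overlap. In heart the order was BT2 with empagliflozin at 45.2 ± 7.25 CPM, lean vehicle at 39.8 ± 1.87 CPM, empagliflozin at 31.4 ± 3.68 CPM, BT2 at 30.0 ± 5.16 CPM, vehicle of study B at 21.6 ± 2.64 CPM and vehicle of study A at 19.8 ± 3.83 CPM (n = 10 each). Intervals of mean ± SD did not overlap between lean vehicle and empagliflozin, or between BT2 and vehicle of study B, and the libraries of all neighbours overlapped. Over all libraries of an organ Gstz1 ran between 53.3 and 177 CPM in kidney and between 16.5 and 55.7 CPM in heart.

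**Figure D1:**
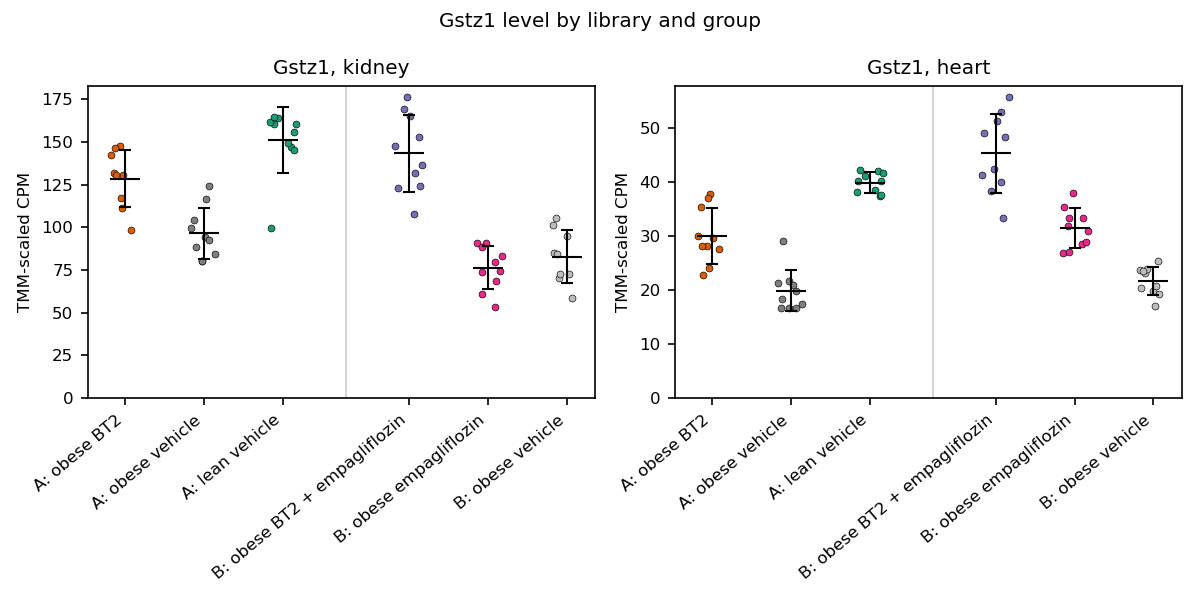
Gstz1 level in TMM-scaled CPM (vertical axes, from 0) in kidney (left) and heart (right), 1 point per library, with mean ± SD as bars and the 6 groups of each organ along the horizontal axes, study A left of the grey line and study B right of it. In heart all 10 obese vehicle libraries of study A lie below all 10 lean ones, and all 10 libraries given BT2 with empagliflozin lie above all 10 vehicle libraries of study B.

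In kidney most transferases were lower in obese vehicle than in lean vehicle rats, and Gstm1 went the other way. Of the 10 genes, 6 fell (Gstz1, Gstk1, Mgst3, Gstm2, Gstt1 and Gsto1), 2 rose (Gstm1 and Mgst1), and Gstp1 and Mgst2 were not called, beside 32% of all 14230 genes tested that were called (16.9% higher and 15.2% lower). The median log2 fold change of the 10 genes was -0.44, against -0.02 over all genes tested. The libraries did not overlap for 1 of the 10 genes, Gstk1, beside 3.10% of all genes tested.

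Gstz1 lay between 80.04 and 124 CPM in obese vehicle kidneys, with a median of 93.5 CPM, and between 99.8 and 165 CPM in lean kidneys, with a median of 158 CPM. The lowest lean value was that of replicate 8, the library with muscle transcripts, and the next lean library had 145.3 CPM, above every obese one. Its log2 fold change was -0.62 ± 0.09 (SE; adjusted p = 2.55e-05, edgeR's quasi-likelihood test), and all 10 obese libraries were under the lean median. Within plates it was -0.79 on the first and -0.45 on the second, where the adjusted p was 0.0963 with 5 libraries a group in edgeR's test. Gstk1 lay between 28.8 and 45.7 CPM in obese vehicle kidneys, with a median of 38.1 CPM, and between 50.2 and 65.7 CPM in lean kidneys, with a median of 58.5 CPM. All obese libraries thus lay under all lean ones, and the log2 fold change was -0.61 ± 0.06 (adjusted p = 2.61e-07, edgeR).

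The mu class genes Gstm1 and Gstm2 moved in opposite directions. Gstm2 lay between 7.34 and 14.2 CPM in obese vehicle kidneys, with a median of 9.25 CPM, and between 13.3 and 33.4 CPM in lean kidneys, with a median of 17.7 CPM. The highest lean value was that of replicate 8, the ranges overlapped between 13.3 and 14.2 CPM, and the log2 fold change was -0.93 ± 0.14 (adjusted p = 2.88e-05, edgeR). Gstm1 lay between 30.0 and 50.3 CPM in obese vehicle kidneys, with a median of 37.4 CPM, and between 18.1 and 34.97 CPM in lean kidneys, with a median of 19.5 CPM. All 10 obese libraries were above the lean median, and Gstm1 rose by 0.77 ± 0.13 on the log2 scale (adjusted p = 0.000103, edgeR). Gsto1 fell by 0.43 ± 0.07, Gstt1 by 0.46 ± 0.09 and Mgst3 by 0.54 ± 0.08 on the log2 scale. Mgst1 rose by 0.18 ± 0.06 (adjusted p = 0.0239, edgeR), a call that was lost without the plate term, at an adjusted p of 0.109 in edgeR's test. Gstp1 averaged 299 ± 89.9 CPM in obese vehicle kidneys and 287 ± 24.4 CPM in lean kidneys (SD, n = 10 each), a difference of 0.05 ± 0.10 on the log2 scale.

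In kidney BT2 raised Gstp1 the most. Against obese vehicle rats of study A, 5 of the 10 genes rose with BT2 (Gstp1, Gstm2, Gstz1, Gstt1 and Gstk1) and none fell, beside 5.67% of all 14311 genes tested that were called (2.26% higher and 3.41% lower). The median log2 fold change of the 10 genes was 0.37, against -0.01 over all genes tested. The obese vehicle libraries are those also set against lean rats above, so the values of both comparisons share them. The libraries overlapped for each of the 10 genes.

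Gstp1 lay between 467 and 950 CPM in BT2 kidneys, with a median of 619 CPM, and between 201 and 483 CPM in obese vehicle kidneys, with a median of 273 CPM. All but the lowest BT2 library lay above all vehicle libraries, and the log2 fold change was 1.04 ± 0.18 (adjusted p = 0.00109, edgeR). Gstm2 lay between 11.9 and 22.3 CPM in BT2 kidneys, with a median of 16.6 CPM, against 7.34 to 14.2 CPM and a median of 9.25 CPM in obese vehicle kidneys, a log2 fold change of 0.85 ± 0.11 (adjusted p = 5.10e-05, edgeR). Both genes were above the vehicle median in all 9 BT2 libraries that entered the means. Gstz1 lay between 98.6 and 148 CPM with BT2, with a median of 131 CPM, against 80.04 to 124 CPM and a median of 93.5 CPM with vehicle. It was above the vehicle median in 9 of 9 BT2 libraries and rose by 0.40 ± 0.11 on the log2 scale (adjusted p = 0.0265, edgeR). Gstk1 rose by 0.35 ± 0.09 (adjusted p = 0.0284, edgeR) and Gstt1 by 0.39 ± 0.08 (adjusted p = 0.00633, edgeR). Without the plate term the calls of Gstz1 and Gstk1 were lost, at adjusted p-values of 0.0655 and 0.0722 in edgeR's test. With the replicate number as a block Gstz1, Gstk1 and Gstt1 were not called (adjusted p = 0.140, 0.147 and 0.0580, edgeR). On each plate alone, with fewer libraries, these genes and Gstp1 were not called. For Gstp1 the adjusted p was 0.0956 on the first plate and 0.0777 on the second in edgeR's test. Mgst1 was above the vehicle median in 9 of 9 BT2 libraries but not called, at 239 ± 38.2 CPM with BT2 (SD, n = 9) and 188 ± 31.1 CPM with vehicle (SD, n = 10) and an adjusted p of 0.065 in edgeR's test. It was called without kidney BT2 replicate 2, at an adjusted p of 0.0218 in the same test.

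In kidney most transferases were not called with empagliflozin alone. Mgst3 and Mgst1 fell and no gene rose, so 2 of the 10 were called, beside 1.06% of all 14059 genes tested (0.469% higher and 0.59% lower). Mgst3 lay between 122 and 160 CPM with empagliflozin, with a median of 147 CPM, and between 143 and 215 CPM with vehicle of study B, with a median of 197 CPM. All 10 empagliflozin libraries were under the vehicle median, and the log2 fold change was -0.37 ± 0.06 (adjusted p = 0.0086, edgeR). Mgst1 averaged 184 ± 13.005 CPM with empagliflozin (SD, n = 10) and 216 ± 23.6 CPM with vehicle (SD, n = 9), a log2 fold change of -0.24 ± 0.06 (adjusted p = 0.0437, edgeR). Without the shallow vehicle replicate 8 the adjusted p of Mgst1 was 0.0593 in edgeR's test. Gstz1 had a log2 fold change of -0.15 ± 0.11 (adjusted p = 0.467, edgeR), with 7 of 10 empagliflozin libraries under the vehicle median.

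With BT2 and empagliflozin together the kidney showed more and larger differences. Against vehicle of study B, 5 genes rose (Gstp1, Gstm2, Gstz1, Gstk1 and Gstt1) and 2 fell (Gstm1 and Mgst3), beside 32.1% of all 14037 genes tested that were called (17.3% higher and 14.8% lower). The libraries did not overlap for 4 genes, Gstz1, Gstm1, Gstm2 and Gstp1, beside 3.47% of all genes tested. Empagliflozin and the combination were set against the same vehicle libraries.

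Gstp1 lay between 904 and 1337 CPM with the combination, with a median of 1066 CPM, and between 367 and 633 CPM with vehicle, with a median of 551 CPM. The lowest treated library was thus above the highest vehicle one, and the log2 fold change was 1.09 ± 0.10 (adjusted p = 4.40e-08, edgeR). Gstm2 lay between 18.8 and 33.3 CPM with the combination, with a median of 27.4 CPM, and between 7.17 and 17.8 CPM with vehicle, with a median of 13.6 CPM, a log2 fold change of 1.05 ± 0.15 (adjusted p = 1.06e-05, edgeR). Gstz1 lay between 108 and 177 CPM with the combination, with a median of 142 CPM, and between 58.4 and 106 CPM with vehicle, with a median of 84.6 CPM. It rose by 0.77 ± 0.11 on the log2 scale (adjusted p = 9.12e-06, edgeR), by 0.82 on the first plate and 0.71 on the second.

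Gstm1 again moved against Gstm2. It lay between 28.8 and 53.7 CPM with the combination, with a median of 38.03 CPM, and between 56.4 and 97.3 CPM with vehicle, with a median of 77.03 CPM. Every treated library was below every vehicle one, and Gstm1 fell by 0.93 ± 0.11 on the log2 scale (adjusted p = 1.38e-06, edgeR). Gstm1 also differed between the vehicle groups, at 73.3 ± 13.9 CPM in study B (SD, n = 9) and 37.1 ± 5.72 CPM in study A (SD, n = 10), as did Gstp1, at 516 ± 98.3 CPM in study B and 299 ± 89.9 CPM in study A. The studies were not compared by a test. Gstk1 rose by 0.49 ± 0.09 and Gstt1 by 0.47 ± 0.09, and Mgst3 fell by 0.33 ± 0.07 on the log2 scale. Mgst2 was low throughout, between 0 and 13.7 CPM over the kidney libraries, and was called in no kidney comparison.

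Against empagliflozin alone, the combination raised 7 of the 10 genes in kidney (all but Mgst2, Mgst3 and Gstm1) and lowered Gstm1, beside 31.7% of all 13992 genes tested that were called (17% higher and 14.8% lower). Libraries did not overlap for 5 genes, Gstz1, Gstk1, Mgst1, Gstm2 and Gstp1, beside 2.56% of all genes tested. Log2 fold changes were 1.18 ± 0.11 for Gstp1 (adjusted p = 8.67e-08), 1.13 ± 0.13 for Gstm2 (adjusted p = 1.41e-06) and 0.91 ± 0.10 for Gstz1 (adjusted p = 7.45e-07) in edgeR's test. Gstk1 rose by 0.68 ± 0.08, Gstt1 by 0.65 ± 0.09, Gsto1 by 0.37 ± 0.06 and Mgst1 by 0.36 ± 0.05. Mgst3, which was lower than vehicle with either treatment of study B, differed by 0.03 ± 0.05 between the combination and empagliflozin (adjusted p = 0.715, edgeR).

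**Figure D2:**
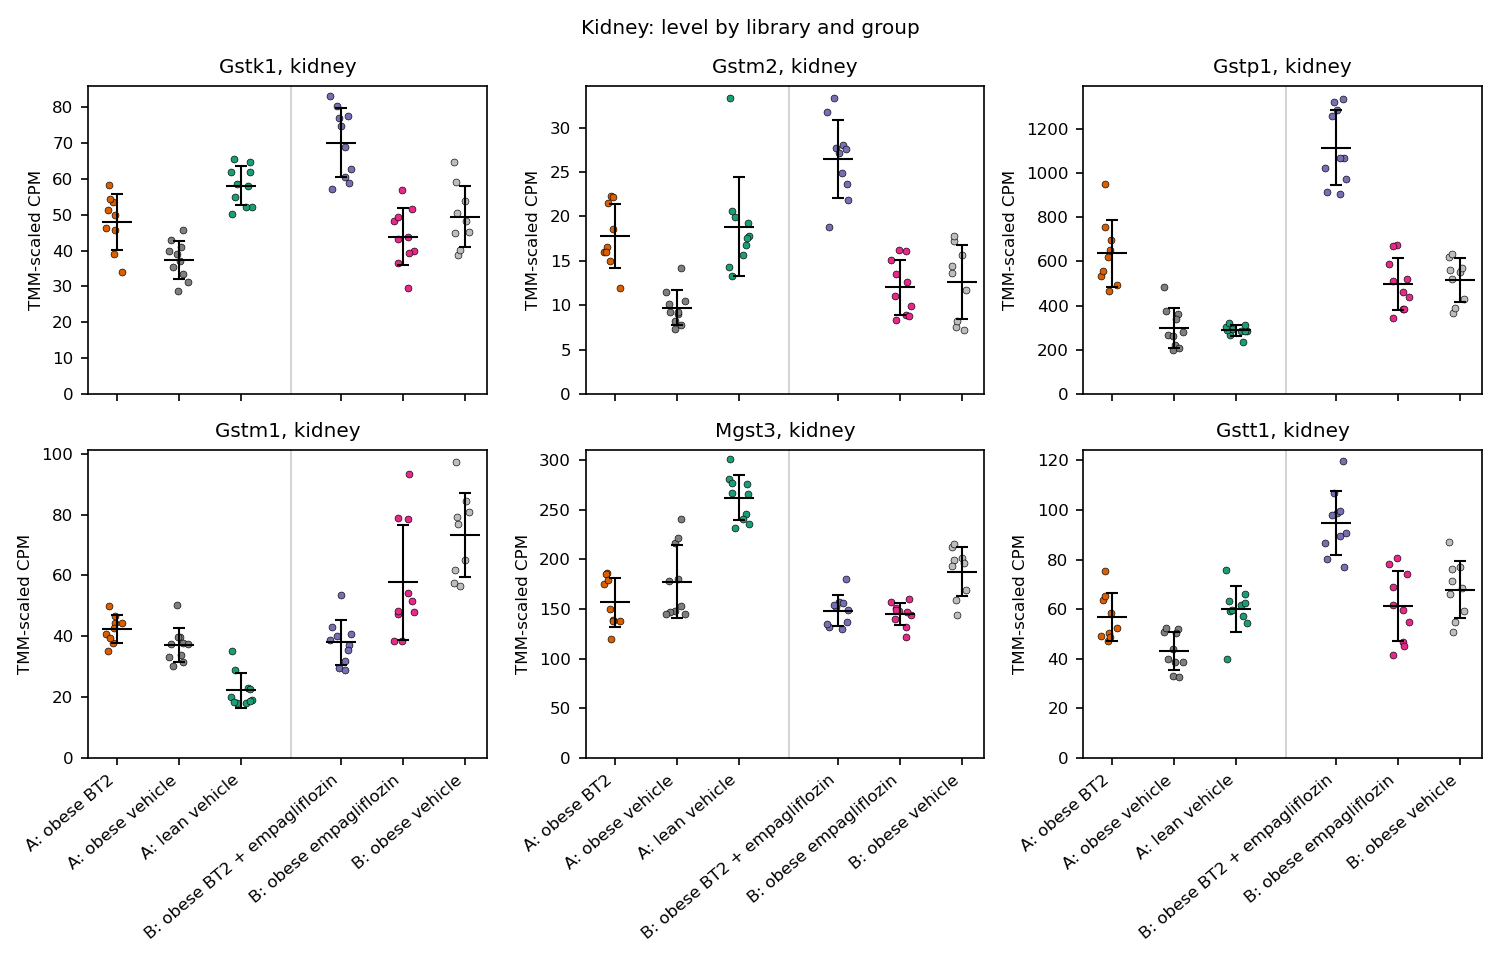
Level in TMM-scaled CPM (vertical axes, from 0) of 6 transferase genes in kidney, 1 point per library with mean ± SD as bars, study A left of each grey line and study B right of it. Gstp1 and Gstm2 are higher in both groups given BT2 than in their vehicle groups, while Gstm1 is lower with the combination than with vehicle of study B, and every lean library of Gstk1 lies above every obese vehicle library of study A.

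The effect of BT2 in the presence of empagliflozin (study B) was set against its effect without it (study A) as an interaction. In kidney it differed for 3 of the 10 genes, beside 7.94% of all 14704 genes tested (4.79% higher and 3.15% lower). The difference was 0.51 ± 0.15 for Gstz1 (adjusted p = 0.0266, edgeR), 0.46 ± 0.13 for Gsto1 (adjusted p = 0.0231, edgeR) and -0.80 ± 0.17 for Gstm1 (adjusted p = 0.00405, edgeR), the last with BT2 effects of -0.58 with empagliflozin and 0.19 without it. The Gstz1 difference was not called without the doubted libraries (0.44, adjusted p = 0.0522, edgeR) or without the plate term (adjusted p = 0.0537, edgeR), and neither was that of Gsto1 without the plate term (adjusted p = 0.0810, edgeR). For Gstp1 the difference was 0.16 ± 0.21. The 2 effects come from different studies, so study and the presence of empagliflozin cannot be told apart. In heart none of the 10 differed, beside 0.0% of all 12864 genes tested by edgeR, where 453 genes had an unadjusted p under 0.05 and DESeq2 called 2 genes.

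In heart Gstz1 fell by 50.3% in obese vehicle rats against lean vehicle rats. Together with Gstk1 and Gstm2, which also fell, and Gstm1, which rose, 4 of the 10 genes were called, beside 5.36% of all 12694 genes tested (3.32% higher and 2.03% lower). The libraries did not overlap for Gstz1 and Gstm1, beside 0.662% of all genes tested. Gstz1 lay between 16.5 and 29.1 CPM in obese vehicle hearts, with a median of 18.99 CPM, and between 37.3 and 42.1 CPM in lean hearts, with a median of 40.1 CPM. The log2 fold change was -0.99 ± 0.09 (adjusted p = 7.19e-08, edgeR), at -0.96 on the first plate and -1.02 on the second. The authors' deposited table gives a log2 fold change of -0.98 for it. Gstm1 lay between 21.7 and 38.95 CPM in obese vehicle hearts, with a median of 26.9 CPM, and between 15.7 and 21.5 CPM in lean hearts, with a median of 19.3 CPM, a log2 fold change of 0.57 ± 0.10 (adjusted p = 0.000592, edgeR). Gstk1 fell by 0.44 ± 0.07 on the log2 scale (adjusted p = 0.000163, edgeR), with all 10 obese libraries under the lean median. Gstm2 fell by 0.28 ± 0.08 (adjusted p = 0.0299, edgeR), a call lost without the plate term at an adjusted p of 0.0554 in edgeR's test. Mgst3 was above the lean median in 10 of 10 obese libraries but was not called (0.27 ± 0.09, adjusted p = 0.093, edgeR).

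In heart Gstz1 was higher with each treatment than with vehicle, and it was the gene called in all 5 heart comparisons. BT2 raised Gstz1 and no other of the 10 genes, beside 0.0558% of all 12545 genes tested (0.0239% higher and 0.0319% lower). Gstz1 lay between 22.8 and 37.8 CPM with BT2, with a median of 28.8 CPM, against 16.5 to 29.1 CPM and a median of 18.99 CPM with vehicle of study A. The ranges overlapped, all 10 BT2 libraries were above the vehicle median, and the log2 fold change was 0.59 ± 0.11 (adjusted p = 0.0443, edgeR). Leaving out vehicle replicate 10 gave 0.58 at an adjusted p of 0.0736, and leaving out BT2 replicate 4, which held Myh4 at 734 CPM, gave 0.61 at an adjusted p of 0.0641 in edgeR's test. Without both it was 0.60 at an adjusted p of 0.0961 in the same test. Without the plate term the adjusted p was 0.105, and the plates gave 0.57 and 0.61.

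With empagliflozin, 2 of the 10 genes rose in heart, Gstz1 and Gstk1, beside 0.107% of all 12167 genes tested (0.0822% higher and 0.0247% lower). Gstz1 lay between 26.8 and 37.9 CPM with empagliflozin, with a median of 31.4 CPM, and between 16.98 and 25.3 CPM with vehicle of study B, with a median of 21.9 CPM. The libraries did not overlap, beside 0.00822% of all genes tested, so Gstz1 was the 1 gene of 12167 for which they did not. The log2 fold change was 0.54 ± 0.08 (adjusted p = 0.00407, edgeR). Without the 4 vehicle and 2 empagliflozin libraries rich in the atrial transcript Myl7 it was 0.44 at an adjusted p of 0.0805 in edgeR's test. Gstk1 averaged 33.6 ± 3.58 CPM with empagliflozin and 26.9 ± 2.65 CPM with vehicle (SD, n = 10 each), a log2 fold change of 0.32 ± 0.06 (adjusted p = 0.0440, edgeR). That call was lost when vehicle replicate 4, 5, 7 or 10 or empagliflozin replicate 7 was left out singly, at adjusted p-values of 0.0547 to 0.105 in edgeR's test. Without all the doubted libraries it was 0.26 at an adjusted p of 0.363, and without the plate term the adjusted p was 0.120 in the same test.

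With the combination, 4 of the 10 genes rose in heart against vehicle of study B, Gstz1, Gstm2, Gstk1 and Mgst3, and none fell, beside 5.13% of all 12117 genes tested (3.58% higher and 1.55% lower). The libraries did not overlap for Gstz1, Gstk1 and Gstm2, beside 0.157% of all genes tested. Gstz1 lay between 33.2 and 55.7 CPM with the combination, with a median of 45.3 CPM, against 16.98 to 25.3 CPM and a median of 21.9 CPM with vehicle, and the log2 fold change was 1.06 ± 0.08 (adjusted p = 4.11e-08, edgeR). Gstm2 lay between 43.2 and 63.3 CPM with the combination, with a median of 53.9 CPM, and between 27.7 and 42.1 CPM with vehicle, with a median of 33.8 CPM, a log2 fold change of 0.61 ± 0.08 (adjusted p = 0.000121, edgeR). Gstk1 lay between 33.6 and 43.5 CPM with the combination and between 21.2 and 31.03 CPM with vehicle, a log2 fold change of 0.48 ± 0.06 (adjusted p = 8.30e-05, edgeR). Mgst3 rose by 0.30 ± 0.07 (adjusted p = 0.0124, edgeR), a call lost without the doubted libraries (0.24, adjusted p = 0.173, edgeR) and without the plate term (adjusted p = 0.198, edgeR). Gstm1, which fell in kidney with this treatment, differed by 0.04 ± 0.08 in heart (adjusted p = 0.844, edgeR).

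Against empagliflozin alone the combination raised Gstz1 in heart and no other of the 10, beside 0.0249% of all 12049 genes tested, all of them higher. Gstz1 averaged 45.2 ± 7.25 CPM with the combination and 31.4 ± 3.68 CPM with empagliflozin (SD, n = 10 each), a log2 fold change of 0.52 ± 0.09 (adjusted p = 0.0156, edgeR). The call was lost without empagliflozin replicate 7 (adjusted p = 0.0611, edgeR) or without combination replicate 8 (adjusted p = 0.0628, edgeR), with log2 fold changes of 0.51 and 0.50, and without all the doubted libraries (0.57, adjusted p = 0.0640, edgeR). Gstp1, which rose in kidney with BT2, had log2 fold changes of 0.09 to 0.21 in the 3 heart comparisons that add BT2 and was called in none.

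**Figure D3:**
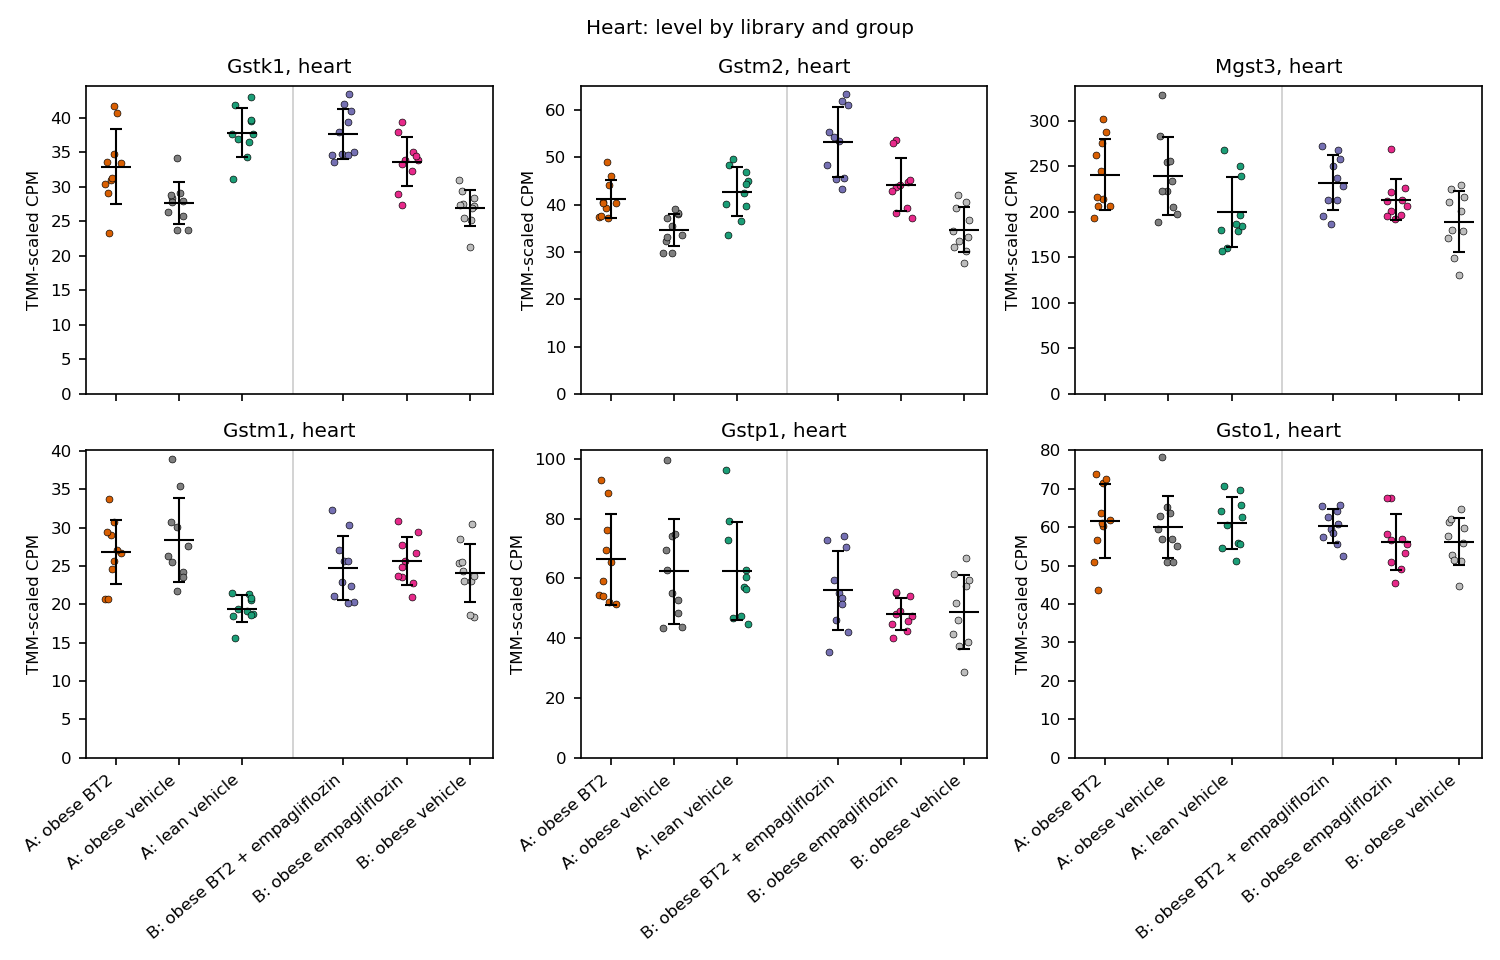
Level in TMM-scaled CPM (vertical axes, from 0) of 6 transferase genes in heart, 1 point per library with mean ± SD as bars, study A left of each grey line and study B right of it. Gstk1 and Gstm2 with the combination lie above every vehicle library of study B, and Gstm1 in obese vehicle hearts of study A lies above every lean library, while Gstp1 and Gsto1 overlap between all groups.

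**Figure D4:**
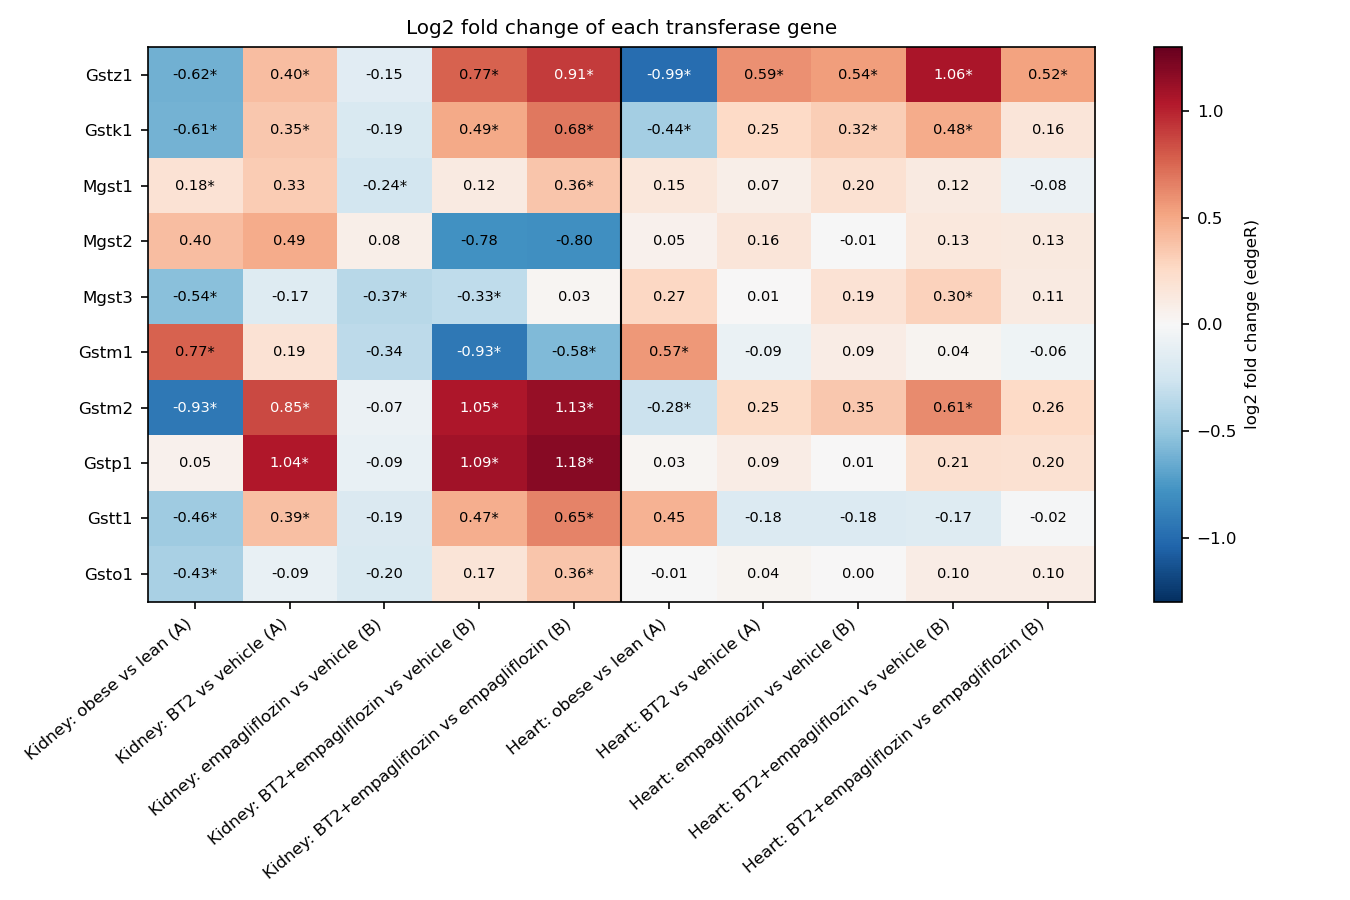
Log2 fold change from edgeR (color scale and printed values) of the 10 transferase genes (rows) in the 5 kidney and 5 heart comparisons (columns), with a star where the adjusted p was under 0.05. Gstz1 is starred in 9 of the 10 columns, all but empagliflozin against vehicle in kidney, and Gstp1 is starred in 3 kidney columns and in no heart column.

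The organs were set against each other by the difference of their effects, heart minus kidney. For obese against lean rats, 4 of the 10 genes differed, beside 14% of all 14926 genes tested (6.41% higher and 7.64% lower). The differences were 0.83 ± 0.12 for Mgst3 (adjusted p = 7.89e-06, edgeR), 0.66 ± 0.16 for Gstm2 (adjusted p = 0.00333, edgeR), 0.43 ± 0.10 for Gsto1 (adjusted p = 0.00258, edgeR) and 0.88 ± 0.26 for Gstt1 (adjusted p = 0.0167, edgeR). Mgst3 and Gsto1 fell in kidney and were not called in heart, and Gstm2 fell in both organs, further in kidney. Gstt1 was at 0.428 to 4.46 CPM over the heart libraries, so its heart values rest on few counts, and its difference was not called without the plate term (adjusted p = 0.120, edgeR). Without the doubted libraries Gstz1 (-0.32, adjusted p = 0.0472, edgeR) and Gstm1 (-0.40, adjusted p = 0.0337, edgeR) were called as well. For BT2 the effect in heart was lower for Gstp1 (-0.95, adjusted p = 0.0347, edgeR) and Gstm2 (-0.60, adjusted p = 0.00757, edgeR), beside 0.528% of all 14975 genes tested that differed (0.234% higher and 0.294% lower). The Gstp1 difference was not called without the plate term (adjusted p = 0.234, edgeR). For empagliflozin it was higher in heart for Gstz1 (0.70, adjusted p = 0.0140, edgeR), Gstk1 (0.53, adjusted p = 0.0287, edgeR) and Mgst3 (0.56, adjusted p = 0.00531, edgeR), beside 1.39% of all 14732 genes tested (1.09% higher and 0.299% lower). Gstz1 and Gstk1 were no longer called there without the doubted libraries (adjusted p = 0.0644 and 0.114, edgeR) or without the plate term (adjusted p = 0.0529 and 0.173, edgeR), and Mgst3 was not called without the plate term (adjusted p = 0.0721, edgeR). For the combination the effect was higher in heart for Gstm1 (0.98, adjusted p = 8.66e-06, edgeR) and Mgst3 (0.64, adjusted p = 2.77e-05, edgeR) and lower for Gstp1 (-0.88, adjusted p = 2.93e-05, edgeR), beside 16.2% of all 14692 genes tested (8.30% higher and 7.91% lower). These tests treat the organs as unpaired, since the labels do not tie organs to animals.

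The genes whose levels ran most like those of Gstz1 were ranked by Spearman's rho over the libraries of an organ, which share groups and depth. Over 58 kidney libraries and 10947 genes they were Cyb5a (cytochrome b5, rho 0.93), Iyd (iodotyrosine deiodinase, 0.92), Gcdh (glutaryl-CoA dehydrogenase, 0.92), Acadm (medium-chain acyl-CoA dehydrogenase, 0.92) and Akr1c13 (0.92). Over 60 heart libraries and 8637 genes they were Slc2a4 (the insulin-regulated glucose carrier GLUT4, 0.87), Dcaf11 (0.79), Gcat (glycine C-acetyltransferase, 0.78), Gstk1 (0.77) and Aldh4a1 (a mitochondrial enzyme of proline breakdown, 0.77). In kidney Gsto1 had a rho of 0.80 with Gstz1, Gstk1 one of 0.75 and Gstm2 one of 0.70. Higher values than these were reached by 131, 217 and 379 kidney genes, Gstz1 itself included. Gstm2 in heart had a rho of 0.76, with 7 genes higher, again with Gstz1 included. Gstm1 ran the opposite way in both organs, with a rho of -0.67 in kidney and -0.42 in heart.

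The neighbouring steps were read from lists of genes without the 10 transferases, whose counts stand beside the share of all genes called in the same comparison. A list of the other enzymes of tyrosine breakdown, the pathway of Gstz1, also holds Qdpr and Pcbd1, which recycle the cofactor tetrahydrobiopterin. All 6 of its genes tested fell in obese kidneys against lean kidneys, beside 15.2% of all genes that were called lower, with a median log2 fold change of -0.51. Hpd, which makes homogentisate, fell by 0.89 ± 0.12 and Fah, the step after Gstz1, fell by 0.57 ± 0.11 on the log2 scale. With the combination against vehicle, 2 of the 6 rose in kidney, beside 17.3% of all genes that were called higher, among them Fah by 0.39 ± 0.11 (adjusted p = 0.00905, edgeR). In heart 2 of the 4 tested fell in obese rats, beside 2.03% of all genes, Hpd by 0.72 ± 0.13 and Qdpr by 0.32 ± 0.09, and the same 2 rose with the combination, beside 3.58% of all genes, Hpd by 1.13 ± 0.13 (adjusted p = 2.30e-05, edgeR) and Qdpr by 0.34 ± 0.06.

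Among the other transferases and family relatives, 6 of 13 tested fell and 1 rose in obese kidneys, beside 15.2% lower and 16.9% higher among all genes, with Gsta1 at 783 ± 177 CPM in obese vehicle kidneys and 1462 ± 247 CPM in lean kidneys (SD, n = 10 each). BT2 raised 2 of 13 in kidney, beside 2.26% of all genes, the alpha class gene Gsta3 by 0.89 ± 0.11 and Gstm3 by 0.43 ± 0.12, and the combination raised 4 and lowered 1 against vehicle, beside 17.3% higher and 14.8% lower among all genes, with Gsta3 at 0.80 ± 0.09. Empagliflozin lowered 1, Gstt2, by 0.31 ± 0.06, beside 0.59% of all genes. In heart 2 of 10 rose in obese rats, Gstm3 and Gsta4, beside 3.32% of all genes, and 1 rose with the combination, Gsta4, beside 3.58%. Alpha class genes are related copies too, so their values carry the same doubt as those of the mu class.

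For the supply of glutathione, 7 of 14 genes of synthesis and breakdown tested fell and 2 rose in obese kidneys, beside 15.2% lower and 16.9% higher among all genes, and Gclc, the catalytic subunit of the enzyme that limits synthesis, fell by 0.63 ± 0.13. With the combination 6 of 15 rose and 1 fell against vehicle, beside 17.3% higher and 14.8% lower among all genes. Gclm, the modifier subunit of that enzyme, averaged 991 ± 185 CPM with the combination (SD, n = 10) and 457 ± 136 CPM with vehicle (SD, n = 9), a log2 fold change of 1.114 ± 0.13 (adjusted p = 1.33e-06, edgeR), and Gclc rose by 1.06 ± 0.14. Both also stand in the NRF2 list below. BT2 alone lowered 2 of 14 in kidney, Gsr (glutathione reductase) and Slc7a9, beside 3.41% of all genes, and empagliflozin changed none of 15. In heart none of the 9 or 10 genes tested was called by edgeR in any of the 5 comparisons.

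Genes of the NRF2 pathway other than transferases had 5 of 13 higher and none lower in kidney with the combination against vehicle. Among all genes 17.3% were called higher and 14.8% lower, or 32.1% in either direction. Osgin1 rose by 1.45 ± 0.14 and Nqo1, a quinone reductase, by 0.90 ± 0.12. BT2 alone raised 1 of 13, beside 2.26% of all genes, Nqo1, by 0.56 ± 0.09 (adjusted p = 0.000408, edgeR). In obese kidneys 4 of 13 fell and 1 rose against lean kidneys, beside 15.2% lower and 16.9% higher among all genes. In either direction 32% of all genes were called there. In heart the combination raised 2 of 13, Hmox1 and Nqo1, beside 3.58% of all genes. Hmox1 was low and spread widely there, at 7.75 ± 7.24 CPM with the combination and 3.78 ± 1.03 CPM with vehicle (SD, n = 10 each). Its adjusted p was 0.0315 in edgeR's test, and Nqo1 rose by 0.28 ± 0.08 (adjusted p = 0.0424, edgeR). Of the AHR pathway, 1 of 6 rose in kidney with BT2 (Nqo1, which is in both lists), beside 2.26% of all genes. With the combination 2 of 6 rose and 1 fell there, beside 17.3% higher and 14.8% lower among all genes.

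Glutathione peroxidases and other users showed 6 of 14 lower and 2 higher in kidney with the combination, beside 14.8% lower and 17.3% higher among all genes. Gpx3, the plasma peroxidase made in the proximal tubule, fell by 1.03 ± 0.07 and Gpx2 by 1.03 ± 0.15, while Prdx6 rose by 0.65 ± 0.08. Gpx2 rose by 2.13 ± 0.23 in obese against lean kidneys, where 4 of 14 rose and 5 fell, beside 16.9% higher and 15.2% lower among all genes. For mercapturate formation and export of conjugates, BT2 lowered 3 of 13 in kidney, beside 3.41% of all genes, Nat8f1 by 1.31 ± 0.12, Nat8b by 1.03 ± 0.09 and Nat8f3 by 0.71 ± 0.16, relatives of the acetyltransferase that completes mercapturates and closely related copies of each other. In obese kidneys 7 of these 13 fell and 1 rose, beside 15.2% lower and 16.9% higher among all genes.

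Marker genes of cell types moved with some of these comparisons, and in bulk tissue fewer cells of a type and less RNA per cell cannot be told apart. In obese vehicle kidneys 6 of 9 proximal tubule markers fell against lean kidneys, beside 15.2% of all genes. Their summed level was 6404 to 10780.0 CPM in obese kidneys, with a median of 9157 CPM. In lean kidneys it was 7399 to 15516 CPM, with a median of 14094 CPM. In the same comparison 5 of 6 macrophage markers rose, beside 16.9% of all genes. Their summed level was 138 to 281 CPM in obese and 93.2 to 139 CPM in lean kidneys. Of the fibroblast markers 3 of 5 rose, and of the intercalated cell markers 3 of 4 fell.

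With BT2 none of the 9 proximal tubule markers was called in kidney by edgeR, while 2 of 4 principal cell and 2 of 4 intercalated cell markers rose, beside 2.26% of all genes. The summed level of principal cell markers was 353 to 550.1 CPM with BT2 and 229.9 to 477 CPM with vehicle, and that of intercalated cell markers was 362 to 673 CPM with BT2 and 232 to 455 CPM with vehicle. With the combination 6 of 9 proximal tubule markers fell and 2 rose against vehicle, beside 14.8% lower and 17.3% higher among all genes, with a summed level of 5377 to 7963 CPM with the combination and 5184 to 7680.2 CPM with vehicle. All 4 intercalated cell markers rose, at a summed 569 to 989 CPM with the combination and 364 to 549 CPM with vehicle, without overlap, and 3 of 4 principal cell markers rose, at a median of 1078 CPM with the combination and 811 CPM with vehicle. Macrophage markers fell in 5 of 6 cases and fibroblast markers in 4 of 5, with summed fibroblast markers at a median of 312 CPM with the combination and 491 CPM with vehicle.

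In obese hearts 1 of 7 cardiomyocyte markers fell against lean hearts, Myh6 by 0.74 ± 0.13 on the log2 scale, and 2 of 5 endothelial markers fell, Cdh5 by 0.44 ± 0.08 and Tie1 by 0.40 ± 0.09, beside 2.03% of all genes. Of the atrial markers 1 of 4 rose, Nppa, by 1.29 ± 0.27, beside 3.32% of all genes. In heart 4 of 7 cardiomyocyte markers rose with the combination, beside 3.58% of all genes, and the summed level was 34972 to 48304 CPM with it and 32110.3 to 41380.1 CPM with vehicle. The part of these shifts in the transferase levels was not tested.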

How the data were processed

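RNA of kidney and heart (50 mg of frozen tissue, 400 ng of RNA, stranded poly-A libraries, per the labels' protocols) was measured in 120 libraries. The authors deposited expected counts per gene, which they made with STAR 2.7.3a and Salmon 1.5.2 among other tools on build mRatBN7.2, per the submitters' processing notes. The authors' deposited comparison tables hold a mean signal per gene, log2 fold changes and p-values (DESeq2 1.34.0 is among the tools in the submitters' processing notes), leave out 3 kidney libraries, and are quoted for Gstz1 in heart only. Of the count columns, 163 map to the samples and 82 belong to no sample here and were not used. Runs of one library were summed (43 libraries had a repeat run), and the sums were rounded to whole counts, since 6.85% of the values were not whole. Genes were tested with edgeR 4.0.16 (R 4.3.3; filterByExpr, TMM, quasi-likelihood F test with plate as covariate), with Benjamini-Hochberg adjustment over all genes tested and a threshold of 0.05. Each comparison was fitted within a study, and organs and BT2 effects were set against each other as interactions. DESeq2 1.42.0 and the other alternatives are in the closing section. Means, SDs and ranges leave out the 2 libraries under 1000000 counts, and their counting error is the larger. The labels put replicate animals at 10 per condition, and p-values set a difference against the spread between them. The genes named are the 10 transferases, and for each list up to 3 called genes per comparison. The members and lists were chosen with earlier results of these data known. Of 171 list entries, among which some genes stand more than once, 13 were not found by symbol and were not analysed here. One result on a listed gene is not reported here.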

Additional observations from a re-analysis of the deposited data

Results flagged for a closer look

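In 15 of 120 checks of a gene in a group, 1 library stood far from the others by Dixon's criterion, which chance meets in about 1 of 20 groups. Kidney lean replicate 8, the library with muscle transcripts, had Gstz1 at 99.8 CPM (nearest 145.3 CPM) and Gstm2 at 33.4 CPM (nearest 20.6 CPM). Kidney obese vehicle replicate 8 of study A had Gstm1 at 50.3 CPM (nearest 39.8 CPM). Mgst2, a low gene, stood apart in kidney at 3.01 CPM in vehicle replicate 5 of study A, at 13.7 CPM in empagliflozin replicate 1 and at 9.65 CPM in vehicle replicate 1 of study B. In heart Mgst2 stood apart at 8.83 CPM in BT2 replicate 9, at 5.55 CPM in empagliflozin replicate 4 and at 7.52 CPM in lean replicate 7. Heart obese vehicle libraries of study A stood apart for Gstz1 in replicate 3 (29.1 CPM, nearest 21.6 CPM), for Gstk1 in replicate 7 (34.1 CPM, nearest 29.1 CPM) and for Gsto1 in replicate 10 (78.3 CPM, nearest 65.1 CPM). The remaining hearts were empagliflozin replicate 8 for Mgst3 (268 CPM, nearest 226 CPM), lean replicate 9 for Gstm1 (15.7 CPM, nearest 18.4 CPM) and lean replicate 8 for Gstt1 (4.46 CPM, nearest 2.19 CPM).

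A further 15 values stand here because an effect differed between settings in edgeR's interaction test. The kidney effect of BT2 with empagliflozin minus that without it was 0.51 for Gstz1, -0.80 for Gstm1 and 0.46 for Gsto1. The heart effect minus the kidney effect of obesity was 0.83 for Mgst3, 0.66 for Gstm2, 0.88 for Gstt1 and 0.43 for Gsto1. That of BT2 was -0.60 for Gstm2 and -0.95 for Gstp1. That of empagliflozin was 0.70 for Gstz1, 0.53 for Gstk1 and 0.56 for Mgst3. That of the combination was 0.64 for Mgst3, 0.98 for Gstm1 and -0.88 for Gstp1.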

How the results depend on the processing

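Of 1366 values of single genes under an alternative, 1269 kept their side of the threshold, 85 lost the call and 12 gained one. Among genes called in the main fit or the alternative, 0 changed direction. Changes of direction in genes called in neither were not counted. The number of the 10 genes called stayed within 1.5 times in both kidney comparisons of the combination, under every alternative run there. Elsewhere it moved as follows, and the cause was not tested. Fits on single plates or with libraries left out also hold fewer samples. In kidney, obese against lean (8 genes) gave 2 on plate 2 alone. Kidney BT2 (5 genes) gave 3 with no plate term, 2 with the replicate block, and 1 on plate 1 and 1 on plate 2 alone. Kidney empagliflozin (2 genes) gave 1 with no low-count filter, with no plate term, with all 6 groups in one fit and without the doubted libraries, and 0 with the replicate block and on plates 1 and 2 alone. The kidney BT2 interaction (3 genes) gave 1 with no plate term. In heart, obese against lean (4 genes) gave 1 on plate 2 alone. Heart BT2 (1 gene) gave 2 with DESeq2's Wald test and 0 with no plate term, with the replicate block, on plates 1 and 2 alone, without the doubted libraries and without either vehicle replicate 10 or BT2 replicate 4. Heart empagliflozin (2 genes) gave 1 with DESeq2's size factors, with the replicate block, without a low-count filter and without a plate term, 0 on plate 2 alone and without the doubted libraries, and 1 to 2 without 1 replicate. The heart combination (4 genes) gave 2 on plate 1 and 1 on plate 2 alone. Heart combination against empagliflozin (1 gene) gave 0 with the replicate block, on plate 2 alone and without the doubted libraries, and 0 to 1 without 1 replicate. Heart minus kidney gave 1 with no plate term for BT2 (2 genes), and 0 with no plate term and 1 without the doubted libraries for empagliflozin (3 genes).

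Same-numbered replicates share a plate but no stated animal, litter or day, and they did not deviate together in every pair: at most 5 of 10 correlated best with their own number. The replicate block lost 9 of 42 calls. Doubted libraries are those rich in Actc1 or Alb in kidney, in Myh4 or the atrial transcript Myl7 in heart, or under 1000000 counts. Other markers were not screened. The highest lean heart library held thick ascending limb markers at a summed 92.6 CPM (group median 0.405 CPM). The highest empagliflozin kidney library held lymphoid markers at a summed 494 CPM (group median 16.7 CPM). Neither was among the doubted libraries. Leaving doubted libraries out singly was chosen after seeing the data. Mgst2, and Gstt1 in heart, rest on few counts.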
